A study of Arabidopsis thaliana with 5 samples.

Results

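Rosette leaves of wild-type (WT) Arabidopsis thaliana (Col-0) plants under salt stress (SS) were compared with those of WT plants in optimal growth (Op), using the WT channel (Cy3) of spotted oligonucleotide arrays. The other channel (Cy5) of each array carried RNA of plants that overexpress a grain amaranth transcription factor, OE-AhDof-AI (1 line) or OE-AhERF-VII. The WT plants carried no transgene. Of the 5 arrays of the series, 3 were used: the SS array and the Op array of the AhDof-AI experiment, and the Op array of the AhERF-VII experiment, which served as a second WT sample in Op. There was thus 1 WT sample in SS and there were 2 in Op, and the study's methods speak of pooled plants for gene expression without saying whether this holds for the arrays. Nothing says that the Op samples came from separate plantings, so their spread may be partly technical. The dyes were Alexa555 for Cy3 and Alexa647 for Cy5.

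According to the labels, all plants were 5 weeks old, and the SS plants received 40 mL of 400 mM NaCl on each of 3 days. The study's methods describe a weaker solution after the first day, another volume and another plant age, so the dose is uncertain. The members of the comparison were all 26017 Arabidopsis loci named on 29234 of the 30000 spots of an array, and 25818 of them had an entry in the RefSeq gene table (TAIR10.1). The number after AT in a locus identifier is the chromosome. Values below are log2 intensities after background correction and quantile normalization over the 3 arrays, unless stated otherwise, so that a difference of 1 is 2-fold. In leaf RNA, fewer cells of a type and less RNA per cell cannot be told apart.

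High NaCl imposes both an osmotic stress and sodium toxicity on leaves. Abscisic acid (ABA) accumulates and switches on dehydration genes such as RD29A, while the SOS pathway (the calcium sensor SOS3, the protein kinase SOS2 and the plasma membrane sodium/proton antiporter SOS1) exports sodium. NHX antiporters load sodium into the vacuole, HKT1 retrieves it from the xylem sap, P5CS1 catalyses the rate-limiting step of proline synthesis, and superoxide dismutases, catalases and peroxidases remove reactive oxygen.

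How far a spot's name goes with its brightness touches every result. Median net intensity of gene spots was 836 on the SS array, against 1460 on the AhDof-AI Op array and 1399 on the AhERF-VII Op array. The 95th percentile of 510 empty spots, used here as the background limit, was 232 in SS, 369 in AhDof-AI Op and 480 in AhERF-VII Op, and 90.4%, 77.9% and 77.4% of gene spots lay above it in that order. The 7 leaf markers were spread over the range of brightness: they stood between percentile 21.7 and 80.0 of all loci in SS, against 26.6 to 81.3 in AhDof-AI Op and 25.05 to 85.6 in AhERF-VII Op. LHCB1.3 (a chlorophyll-binding antenna protein, listed as CAB1) was the brightest of them, with GAPA at percentile 69.8 in SS, RCA at 67.5 and LHCB3 at 65.8. RBCS1A (small subunit of Rubisco) stood at percentile 48.7 in SS, against 55.3 in AhDof-AI Op and 63.7 in AhERF-VII Op, and PSBO1 (a subunit of photosystem II) at 21.7 in SS, against 29.9 and 31.4 in Op. The 25 loci of the Calvin cycle and light harvesting list had a median percentile of 59.5 in SS, beside 55.2 for 11 root markers and 61.4 for 9 flower and pollen markers. Pairs of spots with the same transcript identifier had uncorrelated brightness (Pearson r = 0.09 in SS and 0.10 in AhDof-AI Op over 515 pairs, control oligos left out). Among 834 pairs of spots of 1 locus, 14 spots differed at least 2-fold from both Op arrays, and at no locus did both spots do so in the same direction. The photosynthesis list thus lay between the root and flower lists in brightness in SS, but above both in AhERF-VII Op (62.1, against 56.8 and 58.2). Copies of the 11 control oligos had means from 8.55 to 14.10 in SS, with an SD over copies of 0.23 to 0.69. Outside these control oligos, spots of 1 identifier did not share their brightness. A value below is that of the spots given a gene's name, and whether they report that transcript was not tested.

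The WT profile in SS lay close to that of its own experiment in Op. Over 26017 loci, SS and AhDof-AI Op correlated at r = 0.981 and their differences had a standard deviation (SD) of 0.43, whereas SS and AhERF-VII Op gave r = 0.953 and an SD of 0.68. The Op arrays themselves correlated at r = 0.960 with an SD of 0.63; these points share oligos and spot positions. At least a 2-fold difference was found at 616 loci (2.37%) between SS and AhDof-AI Op (240 higher and 376 lower in SS), at 3150 (12.1%) between SS and AhERF-VII Op (1597 higher and 1553 lower), and at 2533 (9.74%) between the WT samples in Op. The growth states thus differed at fewer loci within the AhDof-AI experiment than 2 samples of the same state did between experiments. Experiment and growth state cannot be told apart in the AhERF-VII comparison.

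**Figure D1:**
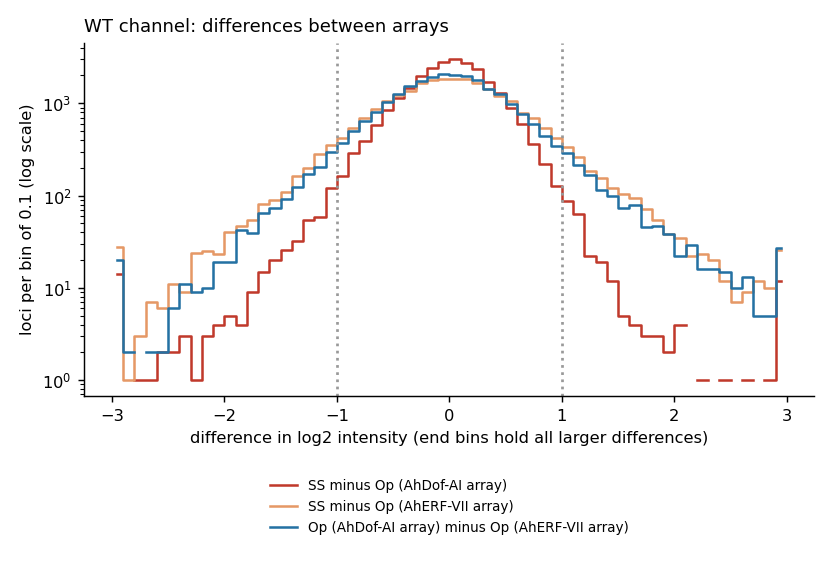
Number of loci (log scale) per bin of 0.1 of the difference in log2 intensity between 2 WT samples; dotted lines mark 2-fold and the end bins hold all larger differences. The curve for SS minus Op of the AhDof-AI experiment (SD 0.43) is narrower than that for Op minus Op (SD 0.63).

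A locus was called where SS was at least 2-fold above, or below, both Op arrays and the brighter state lay above background. By this rule 87 loci were called higher (0.334% of 26017) and 184 lower (0.707%), together 271 (1.04%). In simulated data, with 1 spread for all loci taken from the Op arrays, 0.868% of 25817 unchanged loci met the 2-fold rule without the background limit. Of 50 loci simulated with a 2-fold change, 32% met it. How many of the 271 calls such spread alone would give was not tested. Of the 87 higher loci, 67 were above background on all 3 arrays, 8 in SS and on 1 Op array, and 12 in SS only. Of the 184 lower loci, 162 were above background on all 3 arrays and 22 in Op only. The last higher locus to be included had a smaller difference of 1.0005 and the first left out 0.9990, and for the lower loci these were -1.0013 and -0.9976, so the limit falls in a continuous range. With a single Op array the count was 600 (AhDof-AI Op alone; 238 higher, 362 lower) or 3111 (AhERF-VII Op alone; 1590 higher, 1521 lower).

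The limma test with an intensity trend, in which the lone SS sample is assumed to vary like the Op samples, passed 18 loci at an adjusted p of 0.05 (0.0692%), 5 higher and 13 lower, with 809 at an unadjusted p of 0.05. Only 1 degree of freedom came from the samples, and 1 locus passed when the trend was left out. Of the 18 loci, 12 were also called by the 2-fold rule, and 5 were below background in both states. The adjusted p-values given below are from this limma test. Their spread comes from 2 Op samples of different experiments and is largely pooled over loci of like intensity (prior of 14.8 degrees of freedom).

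Among the loci above background on all 3 arrays, AT3G17090 had the largest difference. It stood at 15.70 in SS, against 10.11 in AhDof-AI Op and 9.36 in AhERF-VII Op, a 62.5-fold difference from the Op mean (log2 difference 5.97, standard error (SE) 0.65, adjusted p = 0.000516). Its raw intensity of 61299 in SS was the highest of any spot on that array. Whether part of its pixels were saturated was not tested, and where they were, the fold is only a lower bound. FC2 (AFC2, a LAMMER-type protein kinase, a class that phosphorylates splicing factors) rose to 12.53 in SS, against 8.76 and 8.30 in the Op samples (log2 difference 4.00, SE 0.52, adjusted p = 0.00292). The spots that carry FC2 disagreed, however: the one at 13.65 in SS read 6.17 and 6.11 in Op, whereas the other read 11.41 in SS, against 11.35 and 10.49 in Op. With the authors' normalized values the FC2 difference was 0.85.

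The other 8 named loci that were higher in SS had differences of 1.35 to 2.11 from the Op mean and did not pass the test (adjusted p = 1.00 each). RPL23AA (a protein of the large cytosolic ribosomal subunit) stood at 12.68 in SS, against 10.75 in AhDof-AI Op and 10.39 in AhERF-VII Op. MIR160c, a precursor of miR160, which targets auxin response factors, had 12.69 in SS, against 11.18 and 10.52 in Op. GSTU28, a tau class glutathione S-transferase, a family that conjugates glutathione to toxic compounds, had 10.48 in SS, against 8.86 and 8.98 in Op. For each of the 10 named higher loci SS lay farther from the nearer Op sample than the Op samples did from each other, which the choice of members favours. PDF1.3 (a plant defensin) had 11.34 in SS, against 9.94 and 9.05 in Op. CYP71B16 (a cytochrome P450) had 13.36 in SS, against 11.98 and 11.54 in Op. CPK31, a calcium-dependent protein kinase, had 13.38 in SS, against 11.99 and 12.06 in Op, the closest pair of Op values among the 10 loci. The remaining loci were PERK5, a proline-rich extensin-like receptor kinase, at 11.05 in SS, against 9.74 and 9.33 in Op, and AT3G61490 at 11.30, against 9.81 and 8.97.

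Of the 10 named lower loci, 5 passed the test, with differences of -5.36 to -3.56 from the Op mean. ABH1 (the large subunit of the nuclear mRNA cap-binding complex, whose loss makes plants hypersensitive to ABA) fell to 8.48 in SS, against 13.77 in AhDof-AI Op and 13.91 in AhERF-VII Op (log2 difference -5.36, SE 0.61, adjusted p = 0.000713), a 41.1-fold lower value. MSI2 (a WD40 protein of the nucleosome assembly factor family) fell to 11.27 in SS, against 14.55 and 15.13 in Op (-3.56, SE 0.46, adjusted p = 0.00241). AT1G68570 (NPF3.1, of the nitrate and peptide transporter family) fell to 9.89, against 13.64 and 14.29 in Op (-4.07, SE 0.58, adjusted p = 0.00811). AT5G61820 fell to 10.22, against 13.70 and 14.23 (-3.75, SE 0.57, adjusted p = 0.0121). AT1G11370 fell to 8.27, against 12.33 and 12.14 (-3.97, SE 0.62, adjusted p = 0.0149).

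ATAF1, a NAC transcription factor known from drought, ABA and pathogen responses, stood at 10.33 in SS, against 13.75 and 13.35 in Op, a 9.34-fold lower value that missed the threshold (adjusted p = 0.0695). The same held for DGR2 (a DUF642 cell wall protein), with 9.46 in SS, against 11.97 and 12.08 in Op (adjusted p = 0.454). AT5G22600, AT1G21395 and AT1G78850 had differences of -2.86, -2.55 and -2.52 from the Op mean (adjusted p = 0.147, 0.469 and 0.316). No SS value of these 10 loci overlapped the Op values, which the choice of members fixes.

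**Figure D2:**
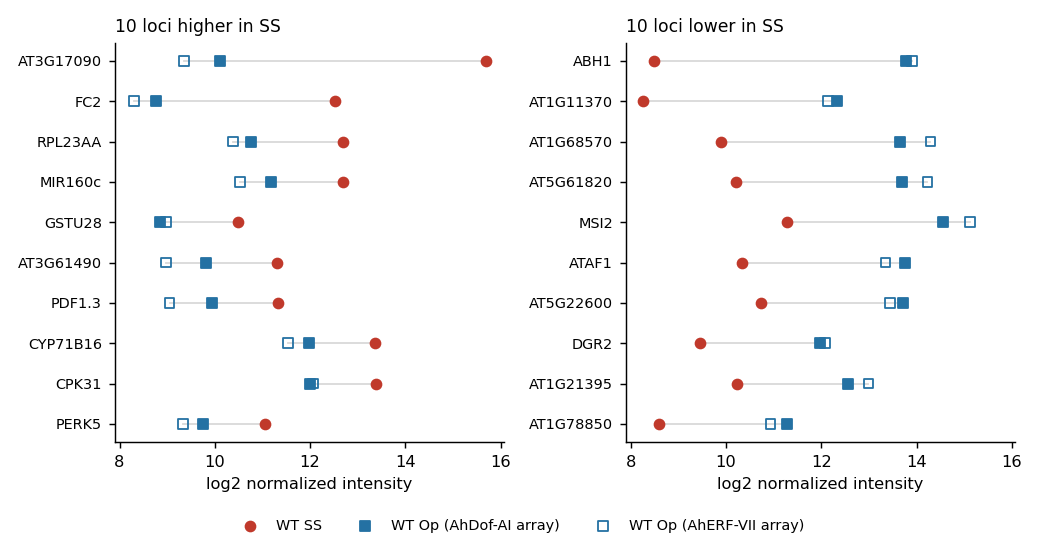
Log2 normalized intensity of the 10 loci higher and the 10 loci lower in SS with the largest smaller-of-the-2 difference, above background on all 3 arrays; each point is 1 WT sample and no error can be drawn for the single SS sample. ABH1 stands at 8.48 in SS, against 13.77 and 13.91 in Op.

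A few loci were above background in only one of the growth states, so that the fold can only be estimated. The estimate sets the brighter state's mean against the lowest average among loci above background on each dim array, or the dim value itself where higher. A locus of several spots can pass on 1 bright spot with a low average, as FC2 did in AhERF-VII Op (8.30). AT3G60320, on 1 spot, was below the limit there at 8.71. The folds may thus be too large and are no strict lower bounds. AT5G29602, annotated as a pseudogene, stood at 13.35 in SS and was not above background in Op (6.24 on both arrays). By this estimate it was about 38.6-fold higher in SS. WRKY25 (a transcription factor known to respond to salt and heat) stood at 10.33 in SS, against 8.38 and 7.59 in Op, about 3.98-fold higher. AT3G15680 was about 2.27-fold higher in SS (9.27, against 6.06 and 6.05 in Op). AT5G29602, WRKY25 and AT3G15680 passed the limma test. For AT5G29602 and AT3G15680 little was left in Op after background subtraction (14.3 and 18.9, and 4.75 and 3.44). The background correction used narrows the spread of such values, and their SEs (0.35 and 0.19) rest mostly on the spread pooled over loci. Of the raw intensity of 966 of the AT3G15680 spot in SS, 448 remained after subtraction of local background. AT4G15755 was about 2.99-fold higher and MOS14, a nuclear importer of SR splicing factors, about 2.86-fold higher, without passing the test.

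In the opposite direction, AT2G14780, also annotated as a pseudogene, was not above background in SS (7.25) and stood at 10.28 and 10.19 in Op. It was about 5.46-fold lower in SS and AT5G44820 about 2.94-fold lower, and both passed the limma test. APM1 (aminopeptidase M1, which functions in auxin transport) was about 3.45-fold lower, AT5G59080 about 4.22-fold and AT3G16750 about 3.87-fold, without passing the test. Of the raw intensity of 704 of the AT2G14780 spot in SS, 94.3 remained after subtraction of its local background, and without background correction its difference was -0.40 in place of -2.98. For AT5G44820, 44.5 of a raw 207 remained in SS, and its difference lay between -3.07 and -1.71 under the alternatives.

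The remaining limma results lay at background. LHY, a morning-phased repressor of the circadian clock, had 6.14 in SS, against 8.35 and 8.34 in Op (-2.20, SE 0.24, adjusted p = 0.000516), and none of these values was above the background limit. CYP78A8, XTH10, AT1G51850 and AT3G60320 were likewise below the limit on each array, and SESA1, a seed storage albumin, was above it in AhDof-AI Op alone. All 5 were chosen after their values were seen, and each was lower in SS.

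Differences from the Op mean lay between -0.44 and 0.57 for the 27 measured members of the ABA and dehydration response list. Of these 27 loci none was called by the 2-fold rule, which called 1.04% of all loci and so would be met by few loci in a list of this size, and none passed limma; 10 were higher in SS than in both Op samples, 5 were lower and 12 lay between, against 33.4% and 31.4% of all loci higher and lower than both. The list's median difference from the Op mean was 0.11, against 0.01 for all loci. RD29A had 14.69 in SS, against 14.58 in AhDof-AI Op and 14.50 in AhERF-VII Op, that is 0.15 above the Op mean (SE 0.32). RAB18, a dehydrin, had 14.77 in SS, against 14.51 and 14.21 in Op. ERD10, another dehydrin, had 10.61, against 9.78 and 10.30. DREB2A (a transcription factor that binds the dehydration-responsive element) had 14.21 in SS, against 14.77 and 14.52 in Op. RD29A, RAB18 and ERD10 lay above both Op samples and DREB2A below both, each by less than 2-fold. The median of each list except the CBF list below changed sign under another scaling of the arrays, so no direction is given for a list.

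None of the 29 loci of ABA synthesis, breakdown and signalling was called or passed limma (median difference -0.07; 10 higher, 11 lower and 8 between). ABA3, which sulfurates the molybdenum cofactor of the last enzyme of ABA synthesis, had 10.45 in SS, against 9.78 in AhDof-AI Op and 8.33 in AhERF-VII Op, the AhERF-VII value being below background. ABI4, a transcription factor of ABA signalling, had 9.92 in SS, against 10.17 and 10.84 in Op.

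The 21 loci of sodium and potassium transport had a median difference of -0.06 and none was called (4 higher, 8 lower and 9 between). SOS1 stood at 14.75 in SS, against 14.94 in AhDof-AI Op and 14.96 in AhERF-VII Op. SOS2 stood at 9.25, against 9.42 and 9.61, while SOS3 was below background on each array (7.82 in SS, against 7.77 and 7.97 in Op). HKT1 was the nearest to a 2-fold difference, with 10.05 in SS, against 9.28 and 8.89 in Op (0.96 above the Op mean, SE 0.47). Of the vacuolar antiporters, NHX1 had 9.84 in SS, against 10.06 and 10.27 in Op, and NHX4 had 14.13, against 14.52 and 15.00. HKT1 lay above both Op samples, and SOS1, SOS2, NHX1 and NHX4 below both, and of these only HKT1 passed 2-fold against 1 Op sample (1.16 over AhERF-VII Op).

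For proline and compatible solutes, 15 loci were measured and none was called (median difference 0.10; 6 higher, 3 lower and 6 between). P5CS1 had 12.49 in SS, against 12.56 and 12.53 in Op, and P5CS2 had 9.26, against 9.29 and 9.18. P5CR, which completes proline synthesis, had 8.60 in SS, against 9.27 and 9.56 in Op (-0.81, SE 0.43). The proline dehydrogenase ERD5 had 12.80 in SS, against 12.48 and 11.66 in Op, and ALDH12A1, the next enzyme of proline breakdown, 11.25, against 10.84 and 10.22. P5CS1 and P5CS2 thus stayed within 0.1 of the Op mean, and the breakdown enzymes lay above both Op samples, by 0.32 (ERD5) and 0.41 (ALDH12A1) over AhDof-AI Op and by 1.14 and 1.03 over AhERF-VII Op.

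Among 20 antioxidant enzymes none was called (median difference 0.11; 8 higher, 6 lower and 6 between). The mitochondrial superoxide dismutase MSD1 differed most, with 13.82 in SS, against 12.89 in AhDof-AI Op and 11.01 in AhERF-VII Op. Its Op values were 1.88 apart, more than the 0.93 that separated SS from AhDof-AI Op. CSD1 (cytosolic copper/zinc superoxide dismutase) had 14.57 in SS, against 14.25 and 14.05. The catalases CAT2 and CAT3 had 9.92 and 11.13 in SS, against 10.22 and 10.99 in AhDof-AI Op and 9.70 and 10.62 in AhERF-VII Op. DHAR3, a chloroplast dehydroascorbate reductase, had 10.75 in SS, against 11.25 and 11.84 in Op.

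**Figure D3:**
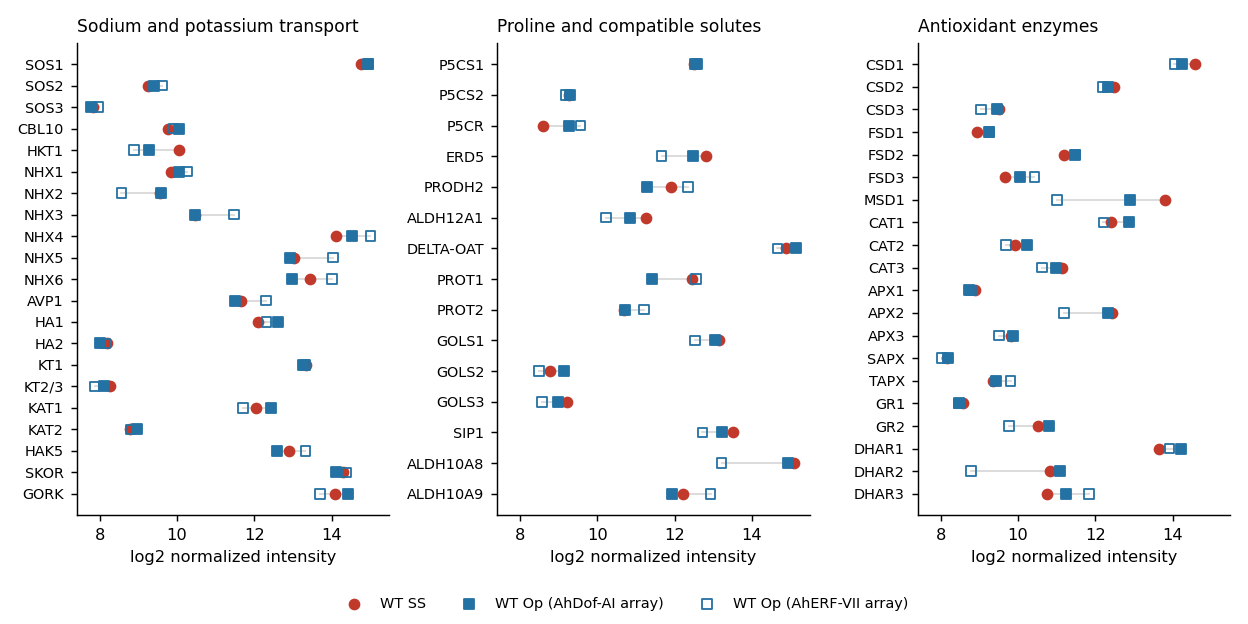
Log2 normalized intensity of every measured member of 3 gene lists; each point is 1 WT sample. SS lies at or between the Op samples, or within 1 unit of the nearer one, for each of the 56 loci, and no locus was called by the 2-fold rule.

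Other stress and hormone lists gave 1 called locus among their members. HSP90.1, a cytosolic chaperone induced by heat, had 13.07 in SS, against 14.10 and 14.08 in Op (-1.01, SE 0.43, adjusted p = 1.00). The heat shock factor HSFA2 had 13.65, against 14.21 and 14.81, and the small heat shock protein HSP17.6A 9.41 in SS, against 8.83 and 8.02. Of 9 loci of the CBF and cold regulation list, 6 were lower in SS than in both Op samples and 1 higher, with a median difference of -0.35. CBF1 had 10.22 in SS, against 11.03 and 11.54 in Op, CBF2 9.47, against 10.09 and 10.25, and CBF4, which responds to drought, 13.81, against 14.28 and 14.39. CBF1 was 1.32 below AhERF-VII Op but 0.81 below AhDof-AI Op, so it was not called, and the median of the list lay between -0.80 and -0.03 under the alternatives.

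In the ethylene list (15 loci, none called), ACS6, an enzyme of ethylene synthesis, had 12.40 in SS, against 13.37 and 13.54 in Op. The ethylene receptor EIN4 had 13.66 in SS, against 14.58 and 14.47, whereas the transcription factor EIL1 had 14.32, against 13.64 and 13.55. In the salicylic acid list (13 loci, none called), 6 loci were higher in SS than in both Op samples and 3 lower. EDS5, a transporter needed for salicylic acid accumulation, was among the lower ones, with 9.62 in SS, against 10.22 and 10.71. Of 15 jasmonate loci none was called, and 8 were higher in SS than in both Op samples and 4 lower. COI1, the jasmonate receptor, was among the lower ones, with 13.97 in SS, against 14.39 and 14.49. No senescence locus was called among 12, and SAG12, a protease of ageing leaves, had 9.29 in SS, against 8.96 and 8.81. Of 17 aquaporins none was called, and PIP2A, a plasma membrane water channel, had 10.21 in SS, against 10.88 and 11.37.

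The 25 loci of photosynthesis had a median difference of -0.03, with 8 higher, 10 lower and none called. LHCB4.1, a minor antenna protein of photosystem II, had 13.92 in SS, against 13.30 and 12.55 in Op. LHCA3, an antenna protein of photosystem I, had 8.68, against 9.30 and 9.96. RBCS2B had 8.24 in SS, against 8.81 on both Op arrays. CAB3, another antenna gene of photosystem II that is not on the list and was chosen after its values were seen, was called lower, with 10.65 in SS, against 11.70 and 12.05 in Op (-1.23, SE 0.64, adjusted p = 1.00). The median differences of the marker lists were 0.20 for the 11 root loci, -0.03 for the 9 flower and pollen loci and -0.26 for 12 loci of guard cells, trichomes and vascular tissue.

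Within the larger families, a few loci were called in both directions, against 0.334% of all loci called higher and 0.707% lower, and with so few calls the families are not shown to differ from that share. Of 71 ribosomal proteins, RPL23AA was called higher and PSRP3/1, a plastid-specific ribosomal protein, lower (9.73 in SS, against 11.21 and 12.22 in Op). Of 104 NAC factors, ATAF1 and NAC014 were called lower, NAC014 standing at 8.61 in SS, against 10.48 and 11.28. Of 134 MYB factors RAX2, a regulator of axillary meristems, was called lower (8.81, against 9.82 and 9.88). Of 72 WRKY factors WRKY25 alone was called, and of 45 glutathione S-transferases GSTU28 alone, both higher. Of 228 cytochromes P450, 2 were called higher (CYP71B16 and CYP705A21) and 3 lower: CYP79F2, an enzyme of glucosinolate synthesis, at 9.20 in SS, against 10.44 and 10.51 in Op, CYP706A4 and CYP706A6. The median difference was between -0.01 and 0.08 in these 6 families.

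Oligos printed many times on each array gave the measurement of a locus with the most repeats. There were 11 of them, 12 copies each (24 for ACT2), and between copies the difference of SS from AhDof-AI Op had an SD of 0.23 to 0.53 (median 0.35). Copies are not replicates of the plants. PGDH (phosphoglycerate dehydrogenase, of serine synthesis) averaged 10.39 ± 0.54 in SS, against 10.81 ± 0.52 in AhDof-AI Op and 10.82 ± 0.79 in AhERF-VII Op (SD over 12 copies), and 11 of its 12 copies were lower in SS than in both Op samples. TUA1, an alpha-tubulin, averaged 13.71 ± 0.28 in SS, against 14.09 ± 0.39 and 14.50 ± 0.28 in Op, again with 11 of 12 copies lower than both. In the other direction, cpHsc70-2 averaged 11.55 ± 0.69 in SS, against 11.18 ± 0.59 and 11.26 ± 0.87 in Op, with 9 of 12 copies higher than both. Of the 11 oligos, 3 averaged higher in SS than in both Op samples and 5 lower. UBL5 averaged 14.10 ± 0.23 in SS, against 14.01 ± 0.28 and 14.08 ± 0.36. ACT2, an actin widely used as a reference, averaged 11.81 ± 0.65 in SS, between 11.99 ± 0.82 and 11.31 ± 1.05 in Op. Differences between SS and AhDof-AI Op did not exceed 0.42 for any of these oligos, whereas the Op samples were up to 0.68 apart. A single copy of the 144 was at least 2-fold higher than on both Op arrays and none at least 2-fold lower.

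**Figure D4:**
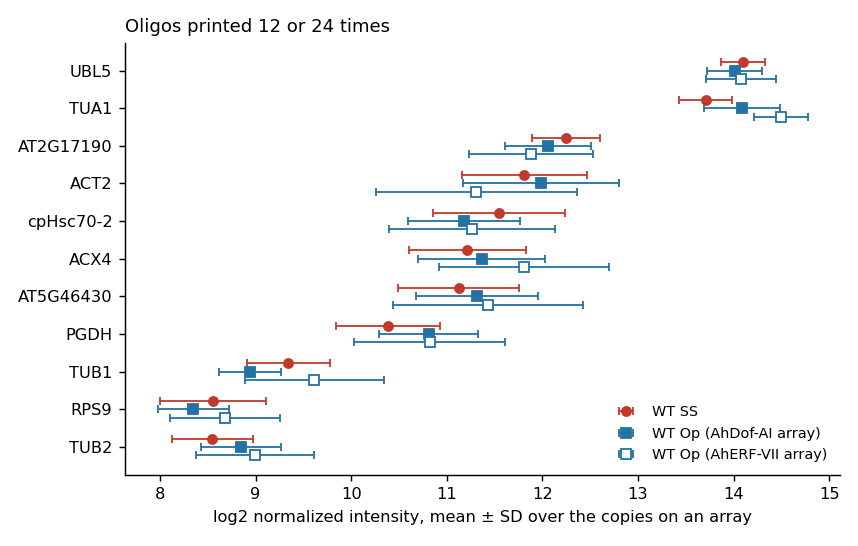
Log2 normalized intensity of 11 oligos printed 12 times (ACT2 24 times) on each array, as the mean over copies with bars of 1 SD over copies. PGDH and TUA1 stand lower in SS than on both Op arrays, by 0.42 and 0.38 relative to AhDof-AI Op, and cpHsc70-2 stands higher, by 0.37.

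The calls were crowded on the slide, the lower ones more than the higher ones. Of 222 single spots lower in SS than on both Op arrays, 78 (35.1%) lay in 2 of the 48 print blocks (row 1, column 4, with 49, and row 5, column 4, with 29), which held 3.97% of the gene spots, and 125 (56.3%) in block column 4. The median block had 2 lower and 1 higher spot. In these same blocks the median gene spot was 0.24 and 0.42 lower in SS than in AhDof-AI Op. ATAF1, NAC014, PSRP3/1, AT1G11370, AT1G21395 and LHY lay in the block of row 1, column 4. Of the 100 higher spots, 10 lay in each of the blocks of row 4, column 2, row 5, column 2 and row 11, column 1. There the median gene spot was 0.05, 0.12 and 0.24 higher in SS than in AhDof-AI Op, and 0.23, 0.72 and 0.80 higher than in AhERF-VII Op. MIR160c, GSTU28, CYP71B16 and AT3G15680 lay in the block of row 4, column 2, and RPL23AA in that of row 5, column 2. After removal of the median of each block on each array, 60 loci were called higher and 100 lower. Of these, 35 and 79 had been called before. All 10 named higher and all 10 named lower loci above background on all 3 arrays remained called. MOS14 did not remain called, and neither did HSP90.1, RAX2, PSRP3/1, CYP79F2, CYP705A21, CYP706A4 and CAB3.

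**Figure D5:**
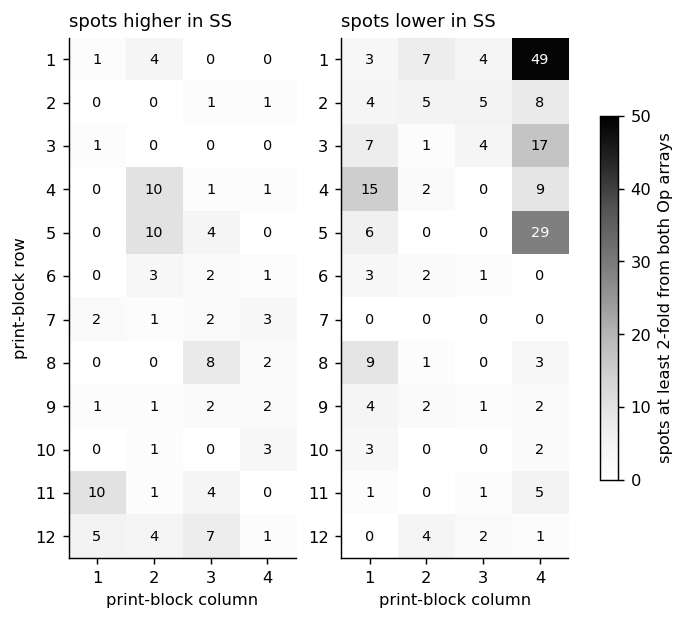
Number of single spots at least 2-fold higher (left) or lower (right) in SS than on both Op arrays in each of the 48 print blocks (darker for more), drawn in their order on the slide. The block in row 1, column 4 held 49 of the 222 lower spots and none of the 100 higher ones.

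The spots of the called loci were also uneven. The SD over the pixels of a spot, divided by their mean, was 0.33 in SS for the median gene spot, but 0.68 for the median spot of the loci called lower, which had 0.33 in AhDof-AI Op and 0.47 in AhERF-VII Op. It exceeded 1 in SS for 17.7% of the 186 spots of lower loci, against 0.540% of all gene spots. For the median spot of the loci called higher the ratio was 0.37 in SS, against 0.57 and 0.65 in Op. The median gene spot had 0.35 in AhDof-AI Op and 0.48 in AhERF-VII Op. In SS the pixel SD exceeded the mean for ABH1 (421 against 344), MSI2 (6408 against 2452), AT1G68570 (2941 against 956), ATAF1 (1497 against 991), AT1G11370 (409 against 350), AT5G22600 (2449 against 1187), AT1G21395 (1325 against 895), AT5G44820 (252 against 207), AT5G59080 (291 against 250) and AT3G15680 (2248 against 966). After subtraction of local background in SS, 1596 of a raw 2452 remained for MSI2 and 656 of 956 for AT1G68570. Their differences from the Op mean lay between -4.12 and -3.01, and between -4.59 and -3.58, under the alternatives. The spots of AT3G17090 and of AT5G61820 were more even, with ratios of 0.18 and 0.45 in SS. When spots above the 90th percentile of this ratio on any of the 3 arrays were left out, 17.9% of all loci were lost, but 56.3% of the loci called higher and 62.5% of those called lower, and 38 higher and 68 lower loci remained called. Of the 15 higher and 15 lower named loci, 5 and 2 were still measured. The part of print position and spot evenness in the calls was otherwise not tested.

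The same spots were read in the OE-AhDof-AI channel, which holds RNA of other plants in the same growth states. All 87 higher and all 184 lower loci had a difference of the same sign between SS and Op in OE-AhDof-AI plants, and 61 and 109 of them reached 2-fold there, while 0.942% of all loci were at least 2-fold higher and 0.988% at least 2-fold lower in that channel. Median differences were 1.139 in WT (from AhDof-AI Op) and 1.102 in OE-AhDof-AI plants for the higher loci, and -1.26 and -1.07 for the lower ones. Both channels share spot and array, so a response of both plant lines and a property of the spot cannot be told apart. AT3G17090 differed by 5.31 and ABH1 by -5.65 in OE-AhDof-AI plants. In WT the difference was larger by 2-fold or more at 7 higher and 2 lower loci. The lower locus AT2G14780 went the other way (-3.03 from AhDof-AI Op in WT, -4.36 in OE-AhDof-AI plants). The choice of loci on their WT difference favours a larger difference in WT, here and in the medians. The share of all loci with the same sign in both channels is not given here. Among the 7 higher loci, SPX2, a phosphate sensing protein, was chosen after its values were seen. In WT it had 11.01 in SS, against 9.001 and 8.653 in Op, and in OE-AhDof-AI plants 9.23 in SS, against 9.03 in Op. MOS14 differed by 1.71 from AhDof-AI Op in WT and by 0.36 in OE-AhDof-AI plants. Of the raw intensity of 405 of its spot in WT AhDof-AI Op, 163 remained after subtraction of local background, where the median background of gene spots was 65.2. The difference between the plant lines was not tested, since each had 1 array per state.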

How the data were processed

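For every spot and channel the authors deposited the mean intensity and mean local background, each with its pixel SD. Their normalized intensities served only as an alternative, and their log2 ratios and other comparison columns were not used. Normexp correction (offset 50) was run with limma 3.58.1 under R 4.3.3. WT channels of 3 arrays were quantile normalized over gene spots and log2 transformed, and spots were averaged per transcript identifier, then per locus. Loci were tested with lmFit and eBayes (trend, Benjamini-Hochberg). Later steps used Python 3.11.15 with pandas 2.3.3 and NumPy 2.4.6.

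Named loci follow a rule: the 10 higher and 10 lower called loci with the largest smaller-of-the-2 difference above background on all 3 arrays. To these were added up to 5 in each direction above background in 1 state only. All members of the transport, proline and antioxidant lists could be named, with up to 4 of each other list and RD29A. The leaf markers and the called members of the larger families were also named. Members, lists and rules were chosen with earlier results of these data known. Scripts were tested on simulated data. The labels give no replicate numbers, and with 3 arrays precision is low.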

Additional observations from a re-analysis of the deposited data

How the results depend on the processing

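The count of 271 loci at least 2-fold from both Op samples moved with scaling, the fold limit and the Op samples used. It was 1069 with plain subtraction of background (83.8% higher in SS) and 795 with median scaling (80.1% higher), against 32.1% higher in the main setting; both moved the median of all loci to 0.35. In the authors' normalized WT values it was 2039 (0.343% higher), with a median of all loci of -0.39. A limit of 1.5-fold gave 1717 (43.6% higher) and 4-fold 21. Chosen after seeing the data, removal of print-block medians gave 160 and omission of uneven spots 106. Leaving out 1 Op sample gave 600 to 3111 (51.1% higher without AhDof-AI Op).

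The limma count of 18 was 48 with plain subtraction, 33 with cyclic loess, 55 over single spots, 57 with the authors' values, 4 above the 25th percentile of brightness and 1 without a trend. It could not be run without an Op sample, since no residual degree of freedom was left. Called members of the symbol lists numbered 1 in the main setting, 15 with plain subtraction, 11 with median scaling, 2 with within-array loess and Aquantile, 3 with cyclic loess, 16 with the authors' values, 19 at 1.5-fold, 0 at 4-fold, 0 without print-block medians, 0 without uneven spots and 7 to 36 without 1 Op sample. Of 327 values of the named loci under 12 settings, 94 moved and none changed sign; of 228 list medians, 47 moved, and of 19 lists only the CBF list kept its sign in every setting. Normexp offset 16, no background correction and the 99th percentile of empty spots kept the total within 1.5 times, though with the 99th percentile 109 loci were lower in place of 184. No paired analysis was possible because the labels give no replicate numbers and SS has 1 sample.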

Other observations

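The called loci were spread over the nuclear chromosomes. Lower loci made up 0.715% of 6712 loci on chromosome 1, 0.670% of 4030 on chromosome 2, 0.538% of 5209 on chromosome 3, 0.658% of 3949 on chromosome 4 and 0.904% of 6084 on chromosome 5, and none of 32 mitochondrial loci was called.

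In the WT channel of the arrays of water stress (WS) and recovery (R), from the AhERF-VII experiment, a minority of the loci called in SS lay nearer to SS than to Op. WS was nearer to SS than to the Op mean at 24 of 87 higher and 48 of 184 lower loci, and R at 34 and 71. The choice of loci whose SS value lay far from both Op samples favours values nearer to Op. The same share over all loci is not given here. AT3G17090 had 9.77 in WS and 9.84 in R, near its Op values of 10.11 and 9.36 rather than 15.70 in SS. ABH1 had 13.80 in WS and 14.36 in R, and ATAF1 13.53 and 14.15. FC2 had 8.50 in WS and 11.50 in R, WRKY25 8.07 in WS and 11.50 in R, and AT3G61490 9.26 in WS and 12.56 in R. Each state was measured on 1 array. The states follow the labels of the raw files, but the normalized files recorded for these arrays are named for the other state, so which of a locus's values belongs to WS and which to R is uncertain.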
